A study of Equus caballus with 32 samples.

Results

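Among the 16 rest libraries of tracheal wash (TW) derived cells, 5 were richest and 5 were poorest in transcripts of motile cilia, and these 10 libraries were compared across all other genes. The libraries were selected on measured values: in each rest library the log2 values of FOXJ1, DNAH5, DNAH9, DNAI1, RSPH1 and TEKT1 were averaged, the 5 highest means are called cilia-rich here, and the 5 lowest are called cilia-poor. The series holds 32 libraries from 16 Thoroughbred horses, 1 per horse at rest (T0, about 2 months without work) and 1 in training (T1, after about 2.5 months). The labels name no agent or allele that separates the groups, which were defined by this ranking alone. Because every gene in the 10 rest libraries was open to the selection, differences at T0 are given as a description with no test. Tests of genes were made in the T1 libraries, which took no part in it; the relation of the 6-gene mean between T0 and T1, and a fit with the horse as replicate block, also hold T0 values. A TW gathers free cells of the tracheal lumen after mucus has been broken up and the wash filtered, so each library mixes leukocytes with shed epithelium, and in such bulk RNA fewer cells of a type and less RNA per cell cannot be told apart.

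The multiciliated cell of the airway surface beats mucus toward the throat. Each motile cilium is built on an axoneme, a ring of microtubule doublets around a central pair, with outer and inner dynein arms as motors, radial spokes and the nexin-dynein regulatory complex as regulators, and ribbon proteins that stiffen the doublets. Geminin family regulators and MYB start the programme, RFX and FOXJ1 transcription factors drive axoneme genes, and intraflagellar transport (IFT) carries the parts to the tip. In a healthy tracheal lumen the free leukocytes are mostly macrophages, which carry scavenger receptors such as MARCO and CD163.

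The 6-gene mean at T0 was 12.51 in horse 16, 12.41 in horse 1, 12.07 in horses 3 and 7, and 12.05 in horse 9, the cilia-rich libraries. It was 9.50 in horse 6, 9.49 in horse 13, 9.14 in horse 2, 8.94 in horse 14 and 8.29 in horse 15, the cilia-poor libraries. The 6 libraries between them ran from 10.12 (horse 11) to 11.28 (horse 4). The last cilia-rich library thus stood at 12.05 against 11.28 for the next one below it, and the last cilia-poor library at 9.50 against 10.12 for the next one above it. The cilia-rich libraries lay close together, over a range of 0.46 log2 units, whereas the cilia-poor libraries spread over 1.21.

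The 6 ranking genes were measured in both groups, though not all at a high level in the cilia-poor libraries. FOXJ1, the transcription factor of motile cilia, ran from 13.19 to 14.16 in the cilia-rich libraries and from 9.88 to 11.12 in the cilia-poor ones. DNAH5, an outer arm motor, ran from 12.33 to 13.58 and from 8.82 to 10.31. RSPH1, a radial spoke head protein, ran from 11.36 to 12.38 and from 7.86 to 9.34. TEKT1, a filament protein of the doublets, ran from 10.83 to 11.59 and from 7.61 to 8.90. DNAI1, an intermediate chain of the outer arm, was the lowest, from 10.12 to 10.66 and from 6.43 to 7.79, where the median gene of the cilia-poor libraries stood at 8.80 to 8.87. Ciliated cell transcripts were therefore measured in every one of the 10 libraries, and the label describes a difference in amount. Ranking without any 1 of the 6 genes, or by the 75 members of the 4 axoneme lists outside the ranking set, gave the same 5 and 5 libraries.

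Outside the ranking set, 14646 genes averaged 3 or more on the log2 scale in the 10 libraries. Of these, 2542 were set apart higher in the cilia-rich libraries, which is 17.4% of those compared, and 241 were set apart lower, which is 1.65%. Set apart means that the 5 and 5 values did not overlap and that the means differed by at least 1 log2 unit. These shares are the background for every list given here, and since the same libraries chose the groups nothing is read from them. The split was uneven in size as well as in number. The median difference was 2.15 among the higher genes and -1.11 among the lower ones, against 0.01 for all genes compared, and at a limit of 2 log2 units 1462 genes remained higher and 1 remained lower. The lower genes were the more abundant, with a median mean log2 value of 10.7 against 6.97 for the higher genes.

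The libraries also differed in their general level. The median log2 value over genes was 9.05 to 9.15 in the cilia-rich libraries and 8.80 to 8.87 in the cilia-poor ones, with no overlap. When every library was shifted to the same median, all T0 differences dropped by 0.28 log2 units, and the split became 2129 higher and 983 lower, so that the share of higher genes among those set apart went from 91.3% to 68.4%. How much of the general level comes from the authors' scaling was not tested.

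The 4 axoneme lists had the largest median differences of the 28 lists. All 20 inner arm and regulatory complex genes were set apart higher, with a median difference of 3.16. So were 25 of 26 radial spoke and central pair genes (median 2.88) and 18 of 21 ribbon genes (median 2.81). Of 8 genes listed as outer arm, 6 were set apart higher (median 2.94). This list also holds WDR63 and WDR78, which are inner arm chains, so it is not made of outer arm genes alone. No member of the 4 lists was set apart lower. CCDC39, a ruler protein that sets the spacing of inner arms and spokes, had log2 values of 12.80, 12.67, 12.47, 12.02 and 11.39 in the cilia-rich libraries (horses 16, 1, 3, 7 and 9, the order used from here on) and 8.83, 8.93, 8.74, 8.31 and 8.15 in the cilia-poor libraries (horses 6, 13, 2, 14 and 15). Its groups stood 3.68 log2 units apart, and even its lowest cilia-rich value was more than 2 units above the highest cilia-poor value. CFAP65, a central apparatus protein, had values of 11.95, 12.11, 11.51, 11.48 and 11.68 against 8.71, 8.40, 8.43, 8.13 and 7.43, a difference of 3.53. DNAH10, an inner arm heavy chain, was nearly level in the cilia-rich libraries at 13.20, 13.09, 12.97, 12.92 and 13.14, and lay at 10.28, 10.11, 9.77, 9.65 and 8.84 in the cilia-poor ones, a difference of 3.33. DNAI2, the partner chain of DNAI1, stood at 11.34 ± 0.21 against 8.35 ± 0.51 (SD, n = 5 each).

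A few listed genes did not follow. NME8 differed by 0.60, DNAL1 by 0.96, STK36 by 0.63, CFAP20 by 0.64, EFHC2 by -0.04 and TEX43 by -0.95; these 6 are all the members of the 4 axoneme lists that were not set apart, and they are named here after their values were seen. Among genes with a symbol that averaged 7 or more on the log2 scale, the largest differences were those of MYO15B, an unconventional myosin, at 3.84, and of CCDC33 at 3.68, CCDC39, CFAP46, C13H16orf89, CEP126, CFAP43, RNF32, ECT2L, TSPAN19, CYP2B6, CCDC13, CFAP65, STK33 and FHAD1, the last at 3.47. MYO15B had values of 10.04, 9.37, 8.71, 8.64 and 8.66 against 5.46, 5.20, 5.82, 4.85 and 4.88.

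Genes that make and load cilia differed less, and less evenly. Of 12 dynein arm assembly genes, 8 were set apart higher (median 2.39), with PIH1D3, a cytoplasmic assembly factor, at 3.23 and CFAP300 at 3.02. Of 38 IFT and BBSome genes, 27 were set apart higher, at a median of 1.56. DYNC2H1, the heavy chain of the retrograde IFT motor, had the largest difference of this list, at 3.31. IFT122 and IFT140, both of the retrograde complex, differed by 2.94 and 2.65, and IFT81, of the anterograde complex, by 2.63. DYNC2H1 had values of 10.67, 10.54, 10.72, 10.31 and 10.10 against 7.59, 7.59, 6.93, 7.07 and 6.62. Of 28 genes for multiciliated cell transcription and centriole amplification, 13 were set apart higher, at a median of 1.44. GMNC, a geminin family regulator at the start of the programme, had values of 9.33, 8.91, 9.89, 9.36 and 9.30 against 6.79, 6.26, 5.53, 5.78 and 5.56, a difference of 3.37. MYB differed by 2.88 and NEK10, a ciliary kinase, by 2.93. Among 20 genes for tubulins, their modifying enzymes and ciliary kinesins, 16 were set apart higher (median 2.55), led by the polyglycylase TTLL10 at 3.34 and KIF19, a kinesin that limits cilium length, at 3.17.

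The general epithelial and secretory lists, drawn up apart from the cilium lists, were higher in the same libraries. Not every member is free of a tie to the ciliary genes. Over the 6 libraries between the groups, CDHR3 of the general list had a correlation of 0.99 with the 6-gene mean. AGR3 of the secretory list had one of 0.91, against 0.40 for AGR2. How far ciliated cells supply these 2 lists was not tested. Of 25 general epithelial genes, 23 were set apart higher, at a median of 2.68, among them the airway transcription factors SOX2 (3.20) and NKX2-1 (3.10) and the cadherin relatives CDHR3 (3.42) and CDHR4 (3.19). Of 17 secretory cell genes, 11 were set apart higher, at a median of 2.41. CYP2F1, a cytochrome of club cells, had values of 13.99, 11.39, 12.76, 13.10 and 12.06 against 9.93, 9.66, 9.37, 8.98 and 8.42, and its cilia-rich values spread more than those of any axoneme gene given here. AGR2, which folds mucins, had values of 10.43, 9.94, 11.18, 11.14 and 10.51 against 8.72, 8.19, 7.17, 7.99 and 7.34. A gene that the table describes as mucin 5B but gives no symbol (ENSECAG00000033575, picked after its values were seen) differed by 3.58, with values of 10.84, 11.29, 12.33, 12.12 and 11.16 against 8.36, 7.82, 8.31, 7.50 and 7.87. Within the cilia-rich libraries the mucin 5B and AGR2 values were highest in horses 3 and 7, whereas the 6-gene mean was highest in horses 16 and 1.

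Basal and squamous cell genes were less uniform, with 3 of 16 set apart higher, a share near the 17.4% of all genes, and a median of 1.13. These were KRT13 (2.77) and KRT4 (2.72), keratins of non-cornified stratified epithelium, and ECM1 (2.75). KRT13 had values of 13.51, 12.53, 13.38, 12.98 and 12.41 against 11.54, 10.14, 9.64, 9.81 and 9.81, so that 1 cilia-poor library, horse 6, came within 1 log2 unit of the cilia-rich ones. Of 9 genes of rare epithelial cells only CFTR, the chloride channel that is also found in secretory cells, was set apart, at 2.56, with values of 8.36, 7.69, 8.81, 8.08 and 8.08 against 6.57, 6.09, 4.90, 5.60 and 5.08. The median of that list was 0.24 and became -0.04 after the shift to a common median. Of 21 ion and fluid transport genes 13 were set apart higher (median 1.87), including the water channels AQP5 (3.08) and AQP4 (3.06) and SCNN1A, a subunit of the epithelial sodium channel (2.91). Xenobiotic and retinoid enzymes divided, with 7 of 18 set apart higher and a median of 0.78. The paraoxonases PON3 (3.34), PON1 (3.04) and PON2 (2.80) and the glutathione transferase GSTA3 (3.03) stood at the high end. CYP2B6, another such enzyme, had values of 11.23, 10.56, 11.11, 10.60 and 10.75 against 8.15, 7.32, 7.48, 7.20 and 6.37.

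**Figure D1:**
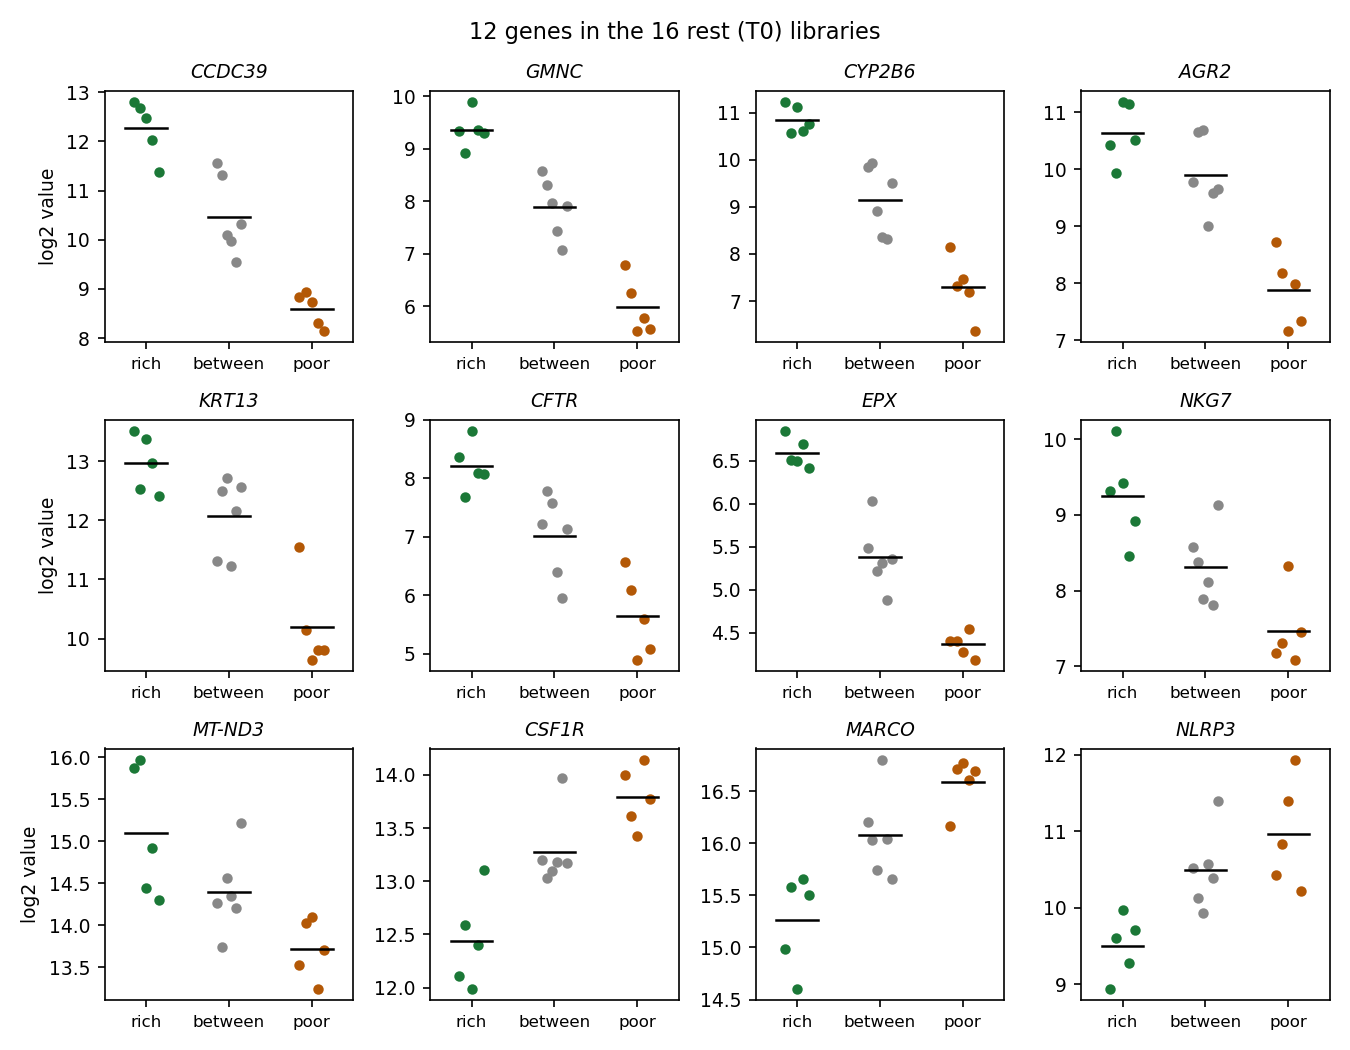
Log2 values of 12 genes in the 16 T0 libraries, 1 panel per gene; points are libraries of the cilia-rich (n = 5), between (n = 6) and cilia-poor (n = 5) groups and black lines are group means. The mean of CCDC39 is 12.27 in the cilia-rich and 8.59 in the cilia-poor libraries, and MARCO runs the other way, from 15.27 to 16.59.

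Macrophage genes were lower in the cilia-rich libraries. Of 21 such genes, 9 were set apart lower and none higher, all 21 differences were negative, and the median was -0.999. CSF1R, the receptor for macrophage growth factor, ran from 11.99 to 13.11 in the cilia-rich libraries and from 13.43 to 14.14 in the cilia-poor ones, a difference of -1.35. MARCO had values of 14.99, 15.58, 14.60, 15.66 and 15.50 against 16.17, 16.72, 16.78, 16.61 and 16.69, a difference of -1.33. VSIG4, a complement receptor of resident macrophages, differed by -1.43. FABP4, a lipid carrier, differed by -1.26 with overlapping groups. These genes remained abundant in all 10 libraries: the mean over the list was 12.9 to 13.7 in the cilia-rich libraries and 14.3 to 14.5 in the cilia-poor ones.

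The 15 largest negative differences, among set-apart genes with a symbol that averaged 7 or more, included other genes of innate immune cells. CYP2C92 led these 15 at -1.83, with values of 8.27, 7.20, 8.70, 8.64 and 6.52 against 9.93, 9.65, 9.24, 9.61 and 10.07. NLRP3, the inflammasome sensor, had values of 8.94, 9.60, 9.97, 9.27 and 9.71 against 10.42, 10.83, 11.39, 11.93 and 10.22, a difference of -1.46. TLR7, a receptor for single-stranded RNA, differed by -1.43, as did FAM78B. The rest of the 15 were PRRT4, KCNQ1, NAPSA, PRAG1, DUSP2, SLC1A2, RNASE6, ANGPTL4, TREML2 and TGFBI with VSIG4, between -1.66 and -1.36. Each of these 15 was smaller in size than each of the 15 largest positive differences.

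Other leukocyte lists were mixed. Of 15 neutrophil genes, 3 were set apart lower, among them TREML2 at -1.37 and NCF1 at -1.04, and 1 higher, ALPL (2.13), an alkaline phosphatase, and the median was -0.42. S100A12, a granule protein of neutrophils, ranged from 7.95 to 12.22 within the cilia-rich libraries, where horse 1 was the highest, and from 6.84 to 9.24 in the cilia-poor ones. Of 19 T cell genes 1 was set apart, CD4, which was lower by 1.07 and which human macrophages also carry, while the median was 0.52 and the CD3 chains CD3D, CD3E and CD3G differed by 0.61, 0.61 and 0.64 with overlap. Of 15 NK and cytotoxic genes 1 was set apart, NKG7, a granule membrane protein, with values of 9.32, 10.11, 9.43, 8.46 and 8.91 against 7.17, 7.31, 8.33, 7.09 and 7.46. None of 11 B and plasma cell genes was set apart (median 0.09, and -0.19 after the shift to a common median), and of 11 dendritic cell genes 1 was set apart, CD83, with 12.10 ± 0.33 against 13.10 ± 0.44 (median 0.00, and -0.28 after the shift).

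Single genes of scarce cell types were set apart higher, while most members of their lists were not. EPX, the peroxidase of eosinophils, had values of 6.84, 6.50, 6.49, 6.69 and 6.41 against 4.41, 4.41, 4.28, 4.54 and 4.19, and KIT, a mast cell growth factor receptor, differed by 1.37. These were 2 of 7 mast cell and eosinophil genes. The list median was 0.57, or 0.29 after the shift to a common median, and the eosinophil receptor gene CCR3 was the lowest, at -0.43. The mean over the list, EPX and KIT included, was 5.26 to 6.44 in the cilia-rich libraries and 4.72 to 5.24 in the cilia-poor ones. HBA, a globin chain, had values of 9.10, 9.22, 8.37, 8.06 and 8.53 against 6.07, 6.57, 6.31, 6.07 and 5.59, a difference of 2.54, and was the only 1 of 4 erythroid genes set apart. The erythroid list median was 0.77, or 0.50 after the shift, and the erythroid regulator KLF1 was the lowest, at -0.12. The mean over that list, HBA included, was 5.87 to 6.31 in the cilia-rich libraries and 4.77 to 5.30 in the cilia-poor ones. VWF, the clotting factor carrier of endothelium, differed by 3.36, whereas the endothelial genes PECAM1, CDH5 and EMCN differed by -0.57, -0.81 and -0.66. With KDR, VWF made 2 of 7 stromal and endothelial genes set apart, at a list median of -0.18. The cell source of EPX, HBA and VWF in these libraries was not tested.

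Transcripts of the mitochondrial genome were higher on average in the cilia-rich libraries, with 4 of 13 set apart and a median of 1.07. The level rested on some libraries more than on others: the mean over the list was 17.06 in horse 16 and 16.99 in horse 1, 16.1 in horse 7, 15.6 in horse 3 and 15.3 in horse 9, against 14.9 to 15.3 in the cilia-poor libraries. MT-CO1 alone took 3.0% to 8.1% of the summed linear values of a cilia-rich library and 1.7% to 2.4% of a cilia-poor one. MHC class II genes had a median of 0.80, with 3 of 13 set apart higher, among them HLA-DOA (1.73) and DQA (1.34). Proliferation genes had a median of -0.86 and all 24 were lower, but none was set apart, and RRM2, a subunit of ribonucleotide reductase, differed by -1.14 with overlap. Interferon-stimulated genes had a median of -0.59, with 0 of 26 set apart and IRF7 at -1.21 with overlap. The 50 ribosomal protein genes had a median of -0.04, -0.32 after the shift, and none was set apart.

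**Figure D2:**
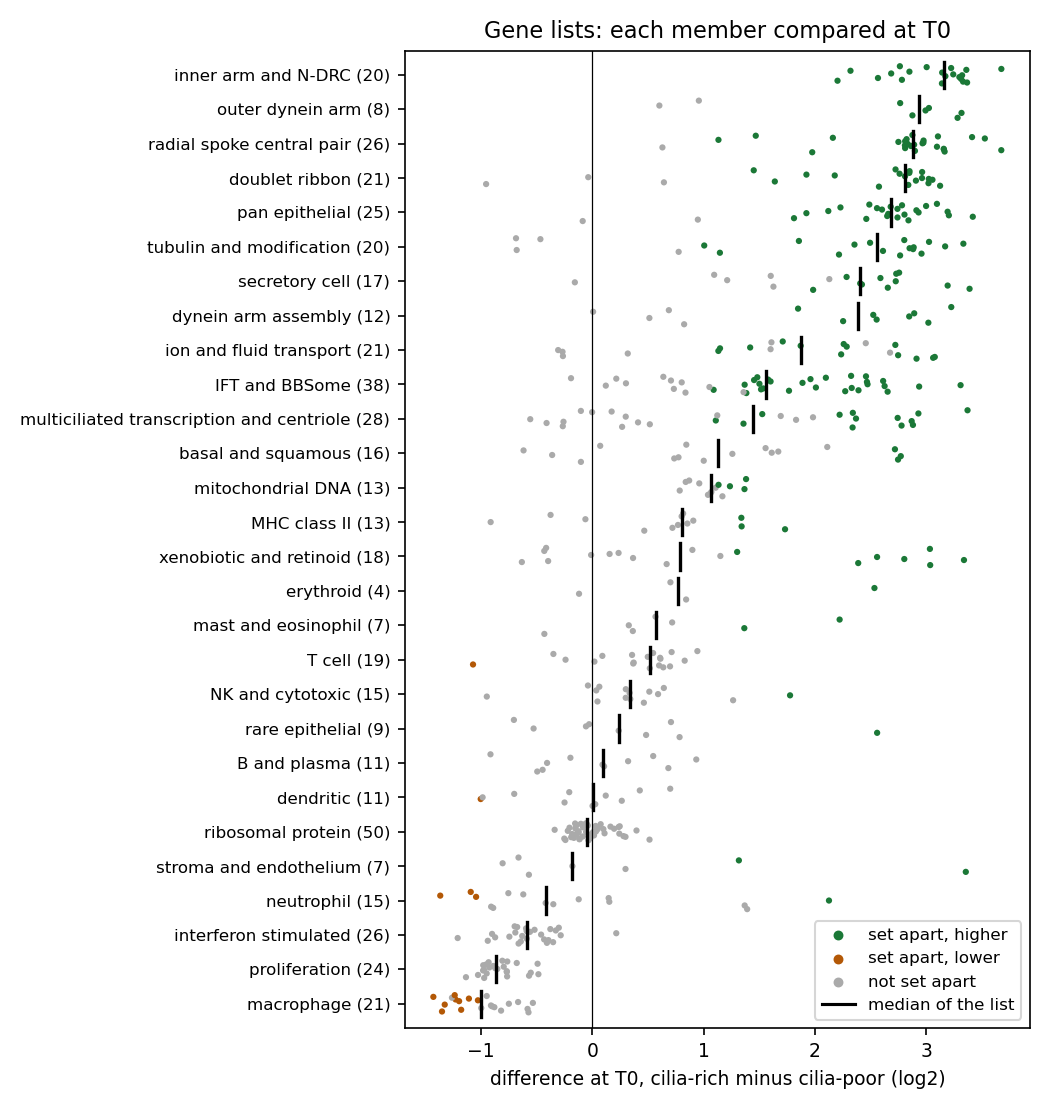
Difference at T0 (cilia-rich minus cilia-poor, log2) of each compared member of the 28 gene lists, with the number of members in brackets; green and brown points were set apart higher and lower, grey points were not, and black bars are list medians. The 4 axoneme lists have medians from 2.81 to 3.16 and the macrophage list has the lowest, at -0.999.

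The 6 libraries between the groups were used to see which genes followed the ranking in graded steps. Over these 6 libraries the Pearson correlation of a gene with the 6-gene mean had a median of 0.69 among the genes set apart higher, -0.49 among those set apart lower and -0.07 among all genes compared. It is given as a description, because 6 libraries share the same scaling and the ranking used them. The inner arm list had a median of 0.97. UBXN11, DYDC2, CFAP70 and CCDC81 followed most closely, with correlations of 0.996 to 0.997. AGR2 followed at 0.40, LYPD2 at 0.23, KRT13 at 0.07 and MT-ND3 at -0.06. Of the genes set apart lower, 86.7% had a negative correlation, against 54.7% of all genes. KCNQ1 and RNASE6 both stood at -0.87. NAPSA (0.45), VSIG4 (0.29), NLRP3 (0.17) and TREML2 (0.04) did not fall with the 6-gene mean in these libraries. The macrophage list had a median of -0.45. The secretory list had a median of 0.38 and the basal and squamous list one of 0.28. Among these 6 libraries horse 8 had a basal and squamous mean of 9.37, the highest of all 16, with a 6-gene mean of 10.56.

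**Figure D3:**
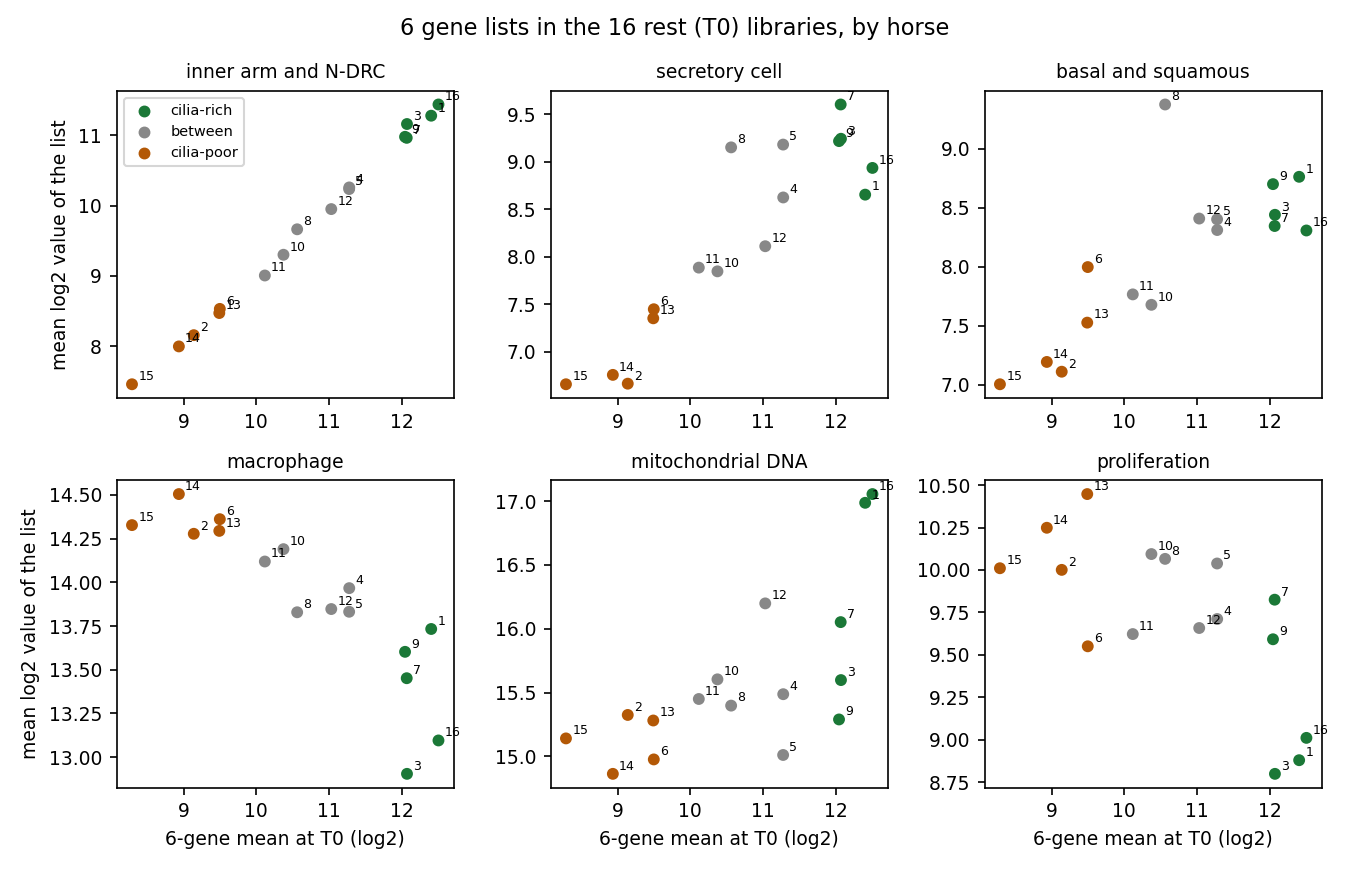
Mean log2 value of 6 gene lists (y axis) against the 6-gene mean (x axis) in the 16 T0 libraries, labelled by horse and coloured by group. The inner arm list follows the 6-gene mean closely in every library, while the mitochondrial DNA list reaches 17.06 and 16.99 in horses 16 and 1 and stays between 14.9 and 16.2 in all others.

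Whether horses kept their position was asked in the T1 libraries. The 6-gene mean at T1 was 12.56, 11.77, 8.93, 10.90 and 11.67 in the horses that had been cilia-rich, and 8.22, 9.50, 11.07, 10.33 and 9.58 in those that had been cilia-poor. Horse 3 went from 12.07 to 8.93 and horse 2 from 9.14 to 11.07, and both had high neutrophil percentages by cytology at T1. Horse 10 also had a high percentage and went only from 10.37 to 10.21. Horse 5, which did not, went from 11.28 to 8.71. A link between neutrophils and these moves was not tested. The groups overlapped, at 11.17 ± 1.38 against 9.74 ± 1.06 (SD, n = 5 each), a difference of 1.43 that did not pass an exact two-sided permutation test (p = 0.111, where 0.00794 is the smallest possible). Of the 5 formerly cilia-rich horses, 4 lay above the mean of the formerly cilia-poor ones. Without horse 3 the difference was 1.99 and passed (exact permutation p = 0.0317). Over all 16 horses the 6-gene mean at T0 and at T1 had a Pearson r of 0.413 (permutation p = 0.113) and a Spearman rho of 0.426 (permutation p = 0.101). Without horses 14 and 15, the farthest from the T0 median, r was 0.388 (permutation p = 0.169). Without horse 3 it was 0.552 (permutation p = 0.0339), so in both tests the call turned on this horse. Leaving out any other horse gave no pass in either test. The group difference did not pass with 4 horses per group (0.92, exact permutation p = 0.343). It did not pass with 6 either (1.39, exact permutation p = 0.0887). The mean of the 4 axoneme lists was also used in place of the 6 genes. Its r over the 16 horses was 0.387 (permutation p = 0.139). Its group difference at T1 was 1.12 (exact permutation p = 0.127).

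**Figure D4:**
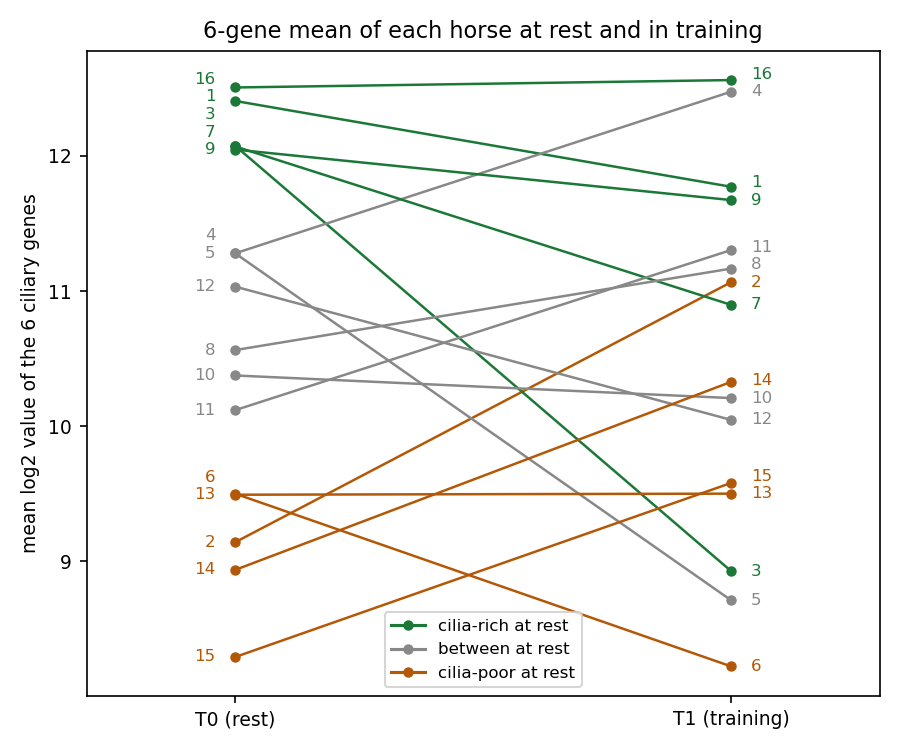
6-gene mean (mean log2 value, y axis) of each of the 16 horses at T0 and T1, joined by a line and coloured by the group at rest. The T0 groups are separate by construction, and at T1 they overlap, with horse 3 at 8.93 among the lowest and horse 2 at 11.07 within the range of the formerly cilia-rich horses.

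Gene by gene, the same 10 horses at T1 gave no call. Of 14643 genes tested with limma, 0 passed an FDR of 0.05 (0% called), 494 had an unadjusted p under 0.05, and the smallest adjusted p was 0.918. The direction at T0 was common at T1. Of 2510 genes set apart higher at T0, 97.4% had a positive difference at T1, against 51.6% of all genes. Most of these genes rose together with the 6-gene mean at T1 (91.9% in the slope fit given further on), so they are not separate results. The 6-gene mean itself differed by 1.43 in these horses and did not pass (exact permutation p = 0.111). The median difference of the genes set apart higher was 0.74, against 2.15 at T0, where they had been picked for a large difference. Among the 241 genes set apart lower, 29 had a positive difference and the median was -0.37. The inner arm list had a median difference of 1.40 and the macrophage list one of -0.26. Without horses 2 and 3, 487 genes passed as higher and 3 as lower. These 2 horses had moved most toward the other group by the 6-gene mean (1.93 and -3.15), so leaving both out favours a difference. Without horse 2 alone or horse 3 alone, 0 genes passed (smallest limma adjusted p = 0.52 and 0.28).

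The T1 libraries were also tested without any grouping, by the slope of each gene on the 6-gene mean of the same library over all 16 horses (limma with trend, Benjamini-Hochberg adjustment over 14624 genes). A slope of 1 means that a gene differed between libraries as much as the ciliary genes, and since both come from the same library they share its scaling. In this fit 3048 genes rose with the 6-gene mean (20.8% of those tested) and 1112 fell (7.6%), with a median slope of -0.01. After the shift to a common median 2651 rose and 3199 fell, which moved the share of rising genes among those called from 73.3% to 45.3%.

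Genes that were set apart at T0 were mostly called in the same direction at T1. Of 2517 genes set apart higher and tested, 2313 rose (91.9%, against 20.8% of all) and 0 fell. Of 241 set apart lower, 135 fell (56.0%, against 7.6%) and 0 rose. The T0 and T1 libraries come from the same horses but share no library.

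At T1 all 20 inner arm and regulatory complex genes rose, with a median slope of 0.96. So did 25 of 26 radial spoke and central pair genes (0.92) and 19 of 21 ribbon genes (0.87). Of 8 genes listed as outer arm, with the inner arm chains WDR63 and WDR78 among them, 7 rose (0.91). DNAI2 had a slope of 0.98 ± 0.05 (SE, adjusted p = 8.2e-11) and DRC7, of the nexin-dynein regulatory complex, one of 1.06 ± 0.05 (adjusted p = 8.1e-11). IFT and BBSome genes rose in 32 of 38 cases at a lower median of 0.47, with DYNC2H1 at 0.75 and IFT140 at 0.85. GMNC had a slope of 0.76 ± 0.10 and MYB one of 0.85 ± 0.08, both called. Among called genes with a symbol that averaged 7 or more, the steepest slopes were those of FAIM2, a neuronal inhibitor of apoptosis, at 1.21, CYP2B6 at 1.14, CDHR3 at 1.08, CRISP2 at 1.08 and DUOX1, which makes hydrogen peroxide at the airway surface, at 1.07.

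Most other epithelial lists had many rising members: 24 of 25 general epithelial genes, 13 of 17 secretory genes (median slope 0.73), 10 of 18 basal and squamous genes (0.62), 17 of 21 ion and fluid transport genes (0.64) and 9 of 18 xenobiotic enzymes (0.30). Of 8 rare epithelial genes only CFTR rose, and the list median was 0.14. AGR2 had a slope of 0.73 ± 0.14 (adjusted p = 0.00032), the gene described as mucin 5B (ENSECAG00000033575) one of 0.89 ± 0.18, KRT13 one of 1.02 ± 0.21 and CFTR one of 0.81 ± 0.10, all called. KRT13 ranged from 9.69 to 15.59 over the 16 T1 libraries. EPX, HBA and VWF rose here too, with slopes of 0.58, 0.78 and 1.02, and so did HLA-DOA at 0.63.

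Macrophage genes fell at T1 in 8 of 21 cases, with slopes from -0.33 to -0.06 and a median of -0.22. CSF1R, MARCO and VSIG4, which had been set apart at T0, did not pass (slopes of -0.18, -0.15 and -0.27, adjusted p = 0.18, 0.21 and 0.085). They passed after the shift to a common median, where 16 of the 21 genes fell, but where 21.9% of all genes tested fell too. NLRP3 fell with a slope of -0.31 ± 0.08, TLR7 with one of -0.36 ± 0.10 and SLC1A2, a glutamate carrier, with one of -0.41 ± 0.07 (adjusted p = 0.0042, 0.0072 and 0.00015). CYP2C92 fell with a slope of -0.67 (adjusted p = 0.0024), though in a fit of both time points (32 libraries, the ranked T0 libraries included) with the horse as replicate block its slope was -0.16 and no longer passed (adjusted p = 0.064). IRF8, a myeloid transcription factor, fell by 0.31 per unit and had a slope of -0.09 with the block (adjusted p = 0.28). Proliferation genes fell in 6 of 24 cases, and in 14 after the shift. Of 26 interferon-stimulated genes 5 fell, and 15 after the shift. These counts stand beside 7.6% of all genes falling, and 21.9% after the shift. Of 15 neutrophil genes 4 fell and 2 rose.

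Some genes set apart at T0 did not pass at T1, and others passed in part of the settings. NKG7 had a slope of 0.24 (adjusted p = 0.18), passing only without horse 3 or without all horses with high neutrophil percentages. KCNQ1, a potassium channel subunit, had a slope of -0.25 (adjusted p = 0.17) and passed without horse 1 (-0.33, adjusted p = 0.039). Mitochondrial transcripts rose in 9 of 13 cases, but in 4 of 13 after the shift, and MT-ND3 rose at 0.36 (adjusted p = 0.031). Its slope stayed positive but did not pass with the replicate block (0.27, adjusted p = 0.18), without horse 4 (0.29, adjusted p = 0.12), 5 (0.36, adjusted p = 0.056) or 6 (0.33, adjusted p = 0.10), after the shift (0.29, adjusted p = 0.059) or with no filter on low values (0.36, adjusted p = 0.057). T cell genes had a median slope of -0.11 and 1 of 19 fell, a share near that of all genes, where the T0 median had been 0.52, or 0.24 after the shift. The NK list had a median slope of -0.21 with 2 of 15 falling, and 8 after the shift, where its T0 median had been 0.33, or 0.06 after the shift.

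**Figure D5:**
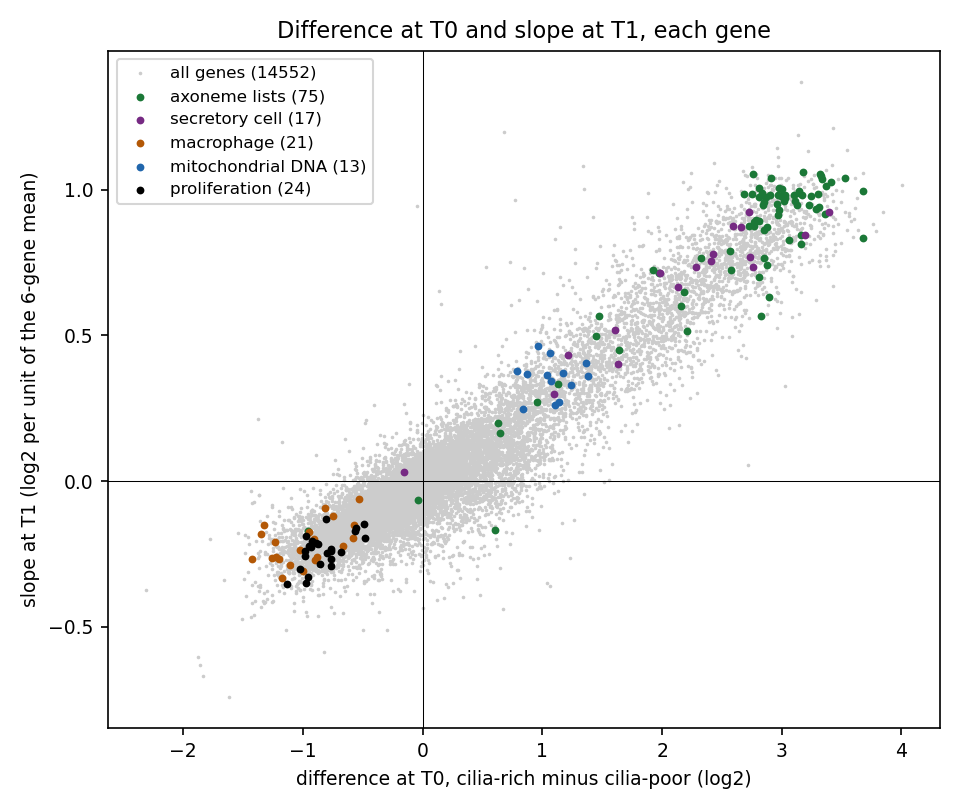
Each point is a gene (n = 14552), placed by its difference at T0 (x axis, cilia-rich minus cilia-poor, log2) and its slope on the 6-gene mean over the 16 T1 libraries (y axis, log2 per unit); coloured points are members of 5 sets of lists. Axoneme genes gather at the upper right with list medians of 0.87 to 0.96 on the y axis, and macrophage genes at the lower left with a median of -0.22.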

How the data were processed

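TW derived cells of 16 horses were sequenced at T0 and T1. Per the submitters' processing notes and the study's methods, reads were trimmed with cutadapt, checked with FastQC and MultiQC, and quantified with kallisto 0.46.0.1 on transcripts of EquCab3.0. The deposited table holds log2 values for 21357 genes. It is titled as raw counts, but no value of a gene that is above or below 0 in some library is whole, 83870 lie below 0, and library medians span 8.79 to 9.15, so they were read as log2 values; the step that made them is not given in the sources used here. The table holds no counts, so depth per library is unknown, no interval that needs counts is given, and the lowest genes may have understated differences (median SD 0.049 below a mean of 0, against 0.64 from 3 to 5). No column was left unmatched.

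Genes at 0 in all libraries (1899) were left out. The T1 fits used limma 3.58.1 (R 4.3.3), with variances moderated by empirical Bayes along a mean trend, an FDR of 0.05 by Benjamini-Hochberg and a minimum mean log2 value of 3; the 6 ranking genes were left out of the slope fit. Both designs were tested on simulated data with known changes, with noise drawn separately for each gene. How well the fits find changes among genes that vary together was not tested. Exact permutation tests were run in scipy 1.17.1 and the 100000-resample permutation tests of the correlations in Python 3.11.15. Figures were drawn in matplotlib 3.10.9. Horses are biological replicates, and the horse pairs T0 with T1.

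Named genes are the 6 ranking genes, the 15 largest set-apart differences per direction with a symbol and a mean of at least 7, up to 4 members per list with the largest differences and a mean of at least 5, the 10 steepest called slopes per direction with a mean of at least 7, and the 4 genes that best followed the 6-gene mean in the 6 libraries between the groups. Any other gene was named after its values were seen. The groups, the 28 lists and the rules were chosen with earlier results of these data known. Alternatives covered the filter, the scaling, the group size, the ranking genes, the difference limit, the limma settings, a neutrophil covariate, subsets of horses, the replicate block and leaving out each horse. Promoter motifs were not searched, as no sequence was used here. The values of 1 neutrophil list member are not reported here.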

Additional observations from a re-analysis of the deposited data

Results flagged for a closer look

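In groups of 5 T0 libraries, 130 sets of values (the 6-gene mean, its genes, the list means and the genes with the largest differences) were checked for a library far from the rest of its group, and chance alone gives such a flag in about 5% of sets. There were 3. The mean of the general epithelial list was highest in horse 16 among the cilia-rich libraries, at 10.60 against 10.10 to 10.21 in the others (gap over range 0.781). KCNQ1 was lowest in horse 3 among the cilia-rich libraries, at 9.06 against 9.51 to 9.62 (0.793). The mean of the B and plasma cell list was highest in horse 6 among the cilia-poor libraries, at 7.43 against 4.93 to 5.22 (0.882).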

How the results depend on the processing

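At T0, the count of genes set apart higher (2542) moved by more than 1.5 times only with 8 libraries per group (670) and a limit of 2 log2 units (1462). The count set apart lower (241) became 983 with every library shifted to the same median, 472 with 4 libraries per group, 72 with 6, 2 with 8 and 1 with a limit of 2 log2 units. Leaving out each library in turn gave 2473 to 2900 higher and 169 (without horse 16) to 420 (without horse 9) lower. At T1, no alternative but 1 called a gene between the horses of the T0 groups: without the horses with high neutrophil percentages 487 genes were higher and 3 lower. Of the 10 horses compared, that alternative left out horses 2 and 3, which had moved most toward the other group. Leaving out each of the 10 horses in turn gave 0 to 0 called in either direction, with limma at FDR 0.05. For the slope, 2633 to 3160 genes rose and 549 (without horse 16) to 1427 fell when each library was left out, and 3199 fell after the shift to a common median. The fit of 32 libraries with the horse as replicate block gave 3249 rising and 1408 falling; it holds the T0 libraries that were ranked, so the passes there of CSF1R, MARCO, VSIG4, TGFBI and KCNQ1 add no support. The difference in the 6-gene mean ran from 1.05 to 1.99 without each horse, and r from 0.312 to 0.552. Of 49 named genes, the slope kept its direction and its side of the threshold in 1202 of 1225 results under alternatives, and reversed in 0. The cause of these changes was not tested.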
